A study of Mus musculus with 4 samples.

Results

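The genes described here are the Wnt ligands, the Frizzled receptors, the co-receptors Ror1, Ror2 and Ryk, the acyltransferase Porcn, the R-spondins with their Lgr receptors, and the secreted or membrane-bound modulators of the Sfrp, Wif, Dkk and Kremen families. They were chosen by gene symbol, leaving out Fzd4 and Dkk3, which gave 50 of the 23278 genes in the deposited table. Whole retinas were taken for RNA sequencing at postnatal day 10. The mice were of mixed strain, at least C57BL6 and 129, and all groups had been injected with 20 μg of 4HT, the active form of tamoxifen, at day 3. There was 1 library for each of 4 genotypes. The stabilized NdpKO library came from NdpKO;Ctnnb1flex3/+;Pdgfb-CreER mice, the NdpKO library from NdpKO mice, the stabilized library from Ctnnb1flex3/+;Pdgfb-CreER mice and the WT library from wild-type mice. NdpKO mice carry a disrupted gene for Norrin, a secreted ligand of Frizzled-4. The Ctnnb1flex3 allele gives a stabilized beta-catenin after recombination, and Pdgfb-CreER directs that recombination mainly to endothelial cells, a small share of the cells in a whole retina. Libraries with the stabilized allele were also the ones with CreER, so the effects of these 2 alleles cannot be told apart. Each library pooled RNA of 3 batches, each from 4 to 8 retinas of 2 to 4 mice, so no spread between mice was measured.

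Wnt proteins are lipid-modified signals that are acylated by Porcn, bind Frizzled receptors together with the co-receptors LRP5 and LRP6, and in the canonical branch stop the destruction of beta-catenin. Sfrp proteins and Wif1 bind Wnts outside the cell, Dkk proteins act on LRP5 and LRP6 with Kremen as partner, and R-spondins with Lgr receptors keep Frizzled proteins on the cell surface. In the retina, Norrin acting on Frizzled-4 in endothelial cells directs vessel growth and barrier formation, and it is not itself a Wnt.

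As a check of the tissue, Rlbp1, a marker of the Müller glia of the retina, lay between 157 and 177 FPKM in the 4 libraries. Ndp was at 0.869 and 0.873 FPKM in the libraries labelled stabilized NdpKO and NdpKO, against 2.35 and 2.98 FPKM in stabilized and WT retinas. Pdgfb, the gene behind the CreER driver, was at 2.92 and 2.57 FPKM in stabilized NdpKO and stabilized retinas, against 1.11 and 1.14 FPKM in NdpKO and WT. The Y-linked Ddx3y was at 20.1 and 18.7 FPKM in the Ndp-deficient libraries and below 0.2 FPKM in the others, so the effect of Ndp and that of sex cannot be told apart, while the libraries of each stabilization pair had alike Ddx3y levels on either side of that divide. FPKM values summed to between 405525 and 427109 per library, and the sources used here give no read totals. Coordinates are those of mm10. Values are FPKM, counts of sequenced fragments divided by the length of the transcript and the size of the library, with the deposited interval in parentheses. The sources used here do not say at what level those intervals were set, and they describe the estimate within a library, not the variation between mice.

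Most of the Wnt ligands were barely detected in the retina, whereas the receptors were broadly present. A 4-library mean of 1 FPKM or more was reached by 21 of the 50 members, or 3 of 19 ligands, 8 of 9 Frizzled genes, 1 of 3 co-receptors, 3 of 5 Sfrp and Wif genes, 2 of 6 Dkk and Kremen genes, 3 of 7 R-spondin and Lgr genes, and Porcn. Of all genes, 56.5% reached that mean with a usable status. In WT the 19 ligands summed to 10.1 FPKM and the 9 Frizzled genes to 29.8 FPKM. Porcn, Ryk, Lgr4, Fzd5, Lgr5, Kremen1 and Fzd3 were the 7 highest members, in this order in all 4 libraries. In WT the intervals of Ryk and Lgr4, of Lgr4 and Fzd5, of Fzd5 and Lgr5 and of Lgr5 and Kremen1 overlapped, so the order of these neighbours is not resolved. The interval of Porcn lay above that of Ryk, that of Kremen1 above that of Fzd3, and that of Fzd3 above that of the next member, Fzd10.

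**Figure D1:**
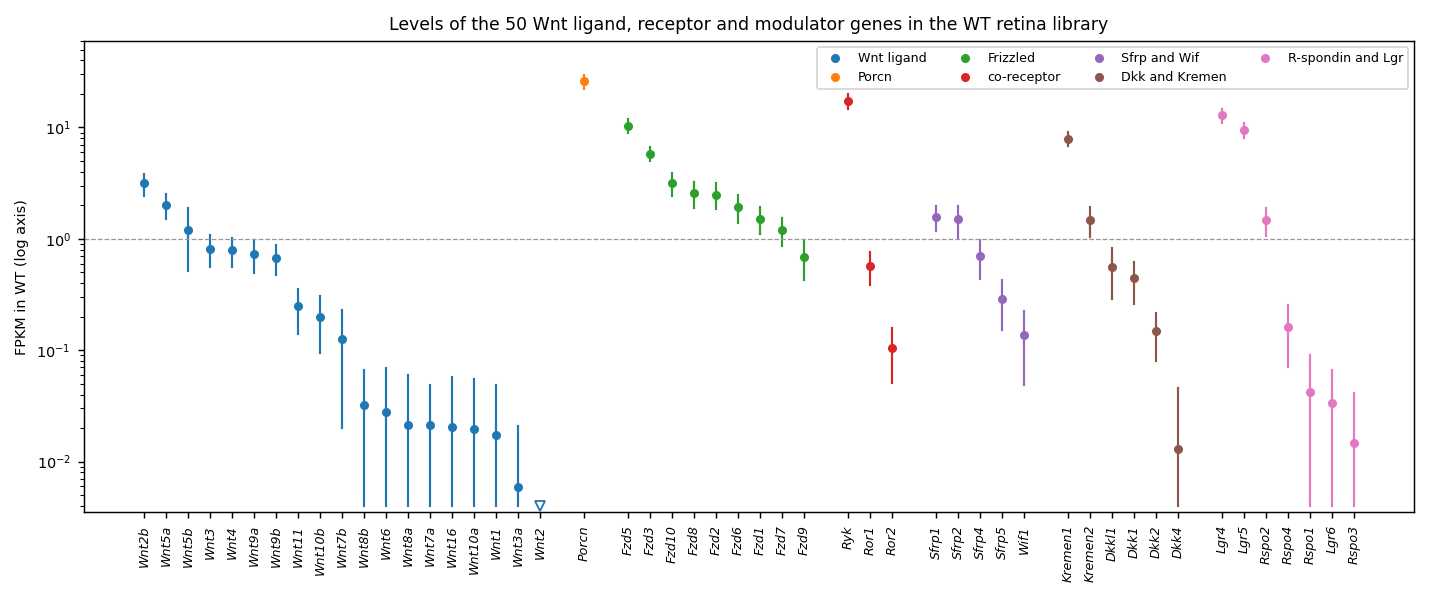
FPKM in the WT library on a log axis for all 50 members, grouped by role and ordered within each role, with points at the value, lines over the deposited interval (drawn down to 0.004 where the lower bound is at or below it), a triangle for Wnt2, listed at 0, and a dashed line at 1 FPKM. Ligands reach from 3.14 FPKM for Wnt2b to 0, while 8 of the 9 Frizzled genes lie above 1 FPKM.

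Among the ligands, Wnt2b was highest in WT. Wnt2b (chromosome 3, 104945272 to 104961921, minus strand), known for its expression at the ciliary margin of the developing eye, was at 2.51 FPKM (1.92 to 3.11) in stabilized NdpKO and 2.86 FPKM (2.21 to 3.51) in NdpKO. It was at 2.31 FPKM (1.75 to 2.87) in stabilized retinas and 3.14 FPKM (2.45 to 3.83) in WT. The stabilized library was thus the lowest and WT the highest, and all 4 intervals overlapped. Wnt5a (chromosome 14, 28504750 to 28527448), a ligand mainly of beta-catenin-independent signalling, was at 2.26 FPKM in stabilized NdpKO, 2.08 FPKM in NdpKO, 2.27 FPKM in stabilized retinas and 2.01 FPKM in WT. Its relative Wnt5b was at 1.5, 1.31, 1.42 and 1.2 FPKM in stabilized NdpKO, NdpKO, stabilized and WT. Its intervals were the widest among these 21 members, with a half-width of 53.6% of the value at the median library, and its deposited locus is shared with Fbxl14, so its separate value is uncertain. Wnt3, Wnt4, Wnt9a and Wnt9b formed a second tier, between 0.536 and 0.869 FPKM in every library. Wnt11, Wnt10b and Wnt7b lay between 0.0982 and 0.324 FPKM, and Wnt7b also shares its deposited locus with another gene, AU022754. The remaining 9 ligands, Wnt1, Wnt2, Wnt3a, Wnt6, Wnt7a, Wnt8a, Wnt8b, Wnt10a and Wnt16, were below 0.1 FPKM in all 4 libraries, and all of these except Wnt7a and Wnt8b were listed at 0 in at least 1 library.

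Several Wnt genes lie next to each other in the genome, a conserved arrangement, and in 2 of 4 such pairs the intervals of the neighbours did not overlap in WT. In WT, Wnt9a was at 0.733 FPKM (0.497 to 0.969) and Wnt3a at 0.00586 FPKM (0 to 0.0210), although only 16.2 kb separate them on chromosome 11. Wnt10b and Wnt1, 11.7 kb apart on chromosome 15, were at 0.199 FPKM (0.0944 to 0.304) and 0.0174 FPKM (0 to 0.0492) in WT. Wnt9b and Wnt3, 24.3 kb apart on chromosome 11, were alike at 0.674 FPKM (0.469 to 0.878) and 0.815 FPKM (0.556 to 1.07). Wnt6 and Wnt10a, 6.2 kb apart on chromosome 1, were both under 0.1 FPKM in all libraries.

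The median CpG content of the promoters was alike in expressed and weakly expressed members, with a wide range in both. RefSeq promoter sequences (GRCm38.p6) were matched for 34 of the 50 members, and the 250 bases before the start listed there were read from them. That start can differ from the GENCODE gene bounds, so some windows, as for Dkk1, Fzd9 and Wnt4, lie partly inside the gene. Of the matched members, the 10 that reached a mean of 1 FPKM had a median of 24.5 CpG (range 10 to 37), the 24 below it 22 CpG (5 to 48), and the 9 below 0.1 FPKM in WT 22 CpG. Over genes of the whole table the first listed promoters had a median of 16 CpG in the 9162 genes that reached that mean and 3 CpG in the 6539 that did not. The lowest members were Wnt8b, Dkk1 and Dkk2, with 5, 6 and 7 CpG, near the median of 6 over all promoter entries. Windows of 3 genes that span this range of expression are shown, each with more CpG than the median of 22 over the matched members. They are Fzd5, the highest Frizzled gene (chr1:64737751-64738000, minus strand, 32 CpG), and the neighbours Wnt9a (chr11:59306680-59306929, plus strand, 48 CpG) and Wnt3a (chr11:59290752-59291001, minus strand, 41 CpG), with each CpG in capitals, 5′ to 3′ on the gene's strand.
Fzd5: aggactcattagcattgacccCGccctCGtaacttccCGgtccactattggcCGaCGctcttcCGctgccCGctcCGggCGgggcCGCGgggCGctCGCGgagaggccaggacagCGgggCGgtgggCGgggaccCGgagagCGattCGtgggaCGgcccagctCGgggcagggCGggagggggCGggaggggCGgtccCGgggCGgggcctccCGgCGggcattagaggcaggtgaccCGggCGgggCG
Wnt9a: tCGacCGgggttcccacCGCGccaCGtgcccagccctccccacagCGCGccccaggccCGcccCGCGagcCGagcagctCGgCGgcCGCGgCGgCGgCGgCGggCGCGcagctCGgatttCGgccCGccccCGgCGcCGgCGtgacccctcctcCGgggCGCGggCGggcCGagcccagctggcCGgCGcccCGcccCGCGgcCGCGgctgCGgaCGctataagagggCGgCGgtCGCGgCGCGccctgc
Wnt3a: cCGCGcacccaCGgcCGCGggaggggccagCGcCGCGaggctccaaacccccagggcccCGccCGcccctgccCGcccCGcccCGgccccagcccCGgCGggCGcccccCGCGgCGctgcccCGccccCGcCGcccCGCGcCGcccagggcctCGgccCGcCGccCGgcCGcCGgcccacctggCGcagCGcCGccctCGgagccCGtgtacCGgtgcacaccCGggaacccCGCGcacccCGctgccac

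The core letters to which TCF and LEF factors bind were searched on both strands of the same windows, counting overlapping matches. The first word searched was CTTTGAA. The second was the word CTTTGAT. The third was the word CTTTGTA. The fourth was the word CTTTGTT. They occurred in 3 of the 34 members, Fzd7, Dkk1 and Wnt11, or 8.82%, against 14.8% of all 32851 promoter entries. With 1 promoter per gene, the share was 10% of members that reached the mean of 1 FPKM and 8.33% of those below it, against 9.78% and 18% of all genes split the same way. A match or its lack describes these letters in this window only. Sfrp4 and Fzd6, the members with the widest spread over the libraries, were among the 16 without a matched entry.

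**Figure D2:**
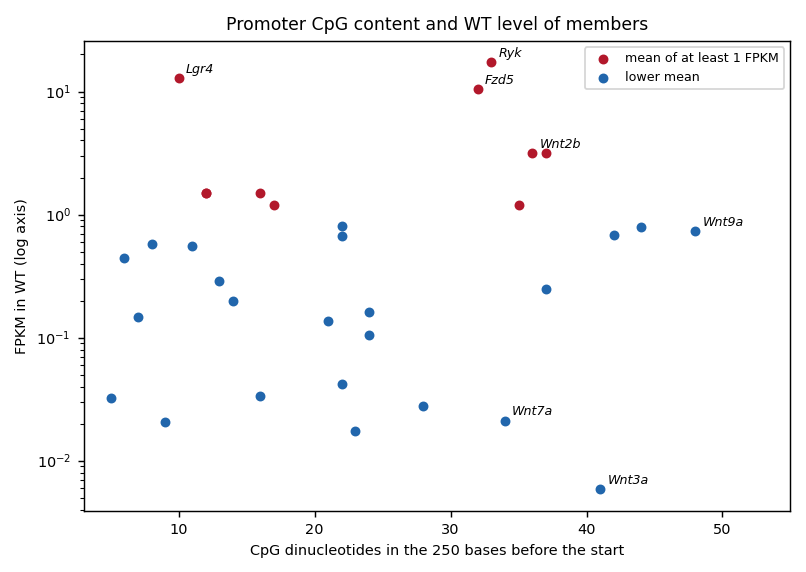
Number of CpG dinucleotides in the 250 bases before the start (horizontal axis) and FPKM in WT (vertical, log axis) for the members with a matched promoter and a WT value above 0, with members of a mean of at least 1 FPKM in red and the others in blue. Wnt3a with 41 CpG lies at 0.00586 FPKM and Lgr4 with 10 CpG at 12.8 FPKM.

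Porcn (X chromosome, 8193848 to 8206525, minus strand), the enzyme that acylates Wnt proteins before secretion, was the highest member. It was at 28.4 FPKM (23.6 to 33.2) in stabilized NdpKO, 25.6 FPKM (21.5 to 29.6) in NdpKO, 26.0 FPKM (21.6 to 30.4) in stabilized retinas and 25.9 FPKM (22.0 to 29.8) in WT. The 4 intervals overlapped. Wls, the carrier that takes acylated Wnts to the cell surface and is no member, was lower, at 1.87, 1.73, 2.06 and 1.58 FPKM in stabilized NdpKO, NdpKO, stabilized and WT.

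Fzd5 led the Frizzled genes and was the steadiest member over the libraries. Fzd5 (chromosome 1, 64730558 to 64737751, minus strand), needed for eye development, was at 10.3 FPKM in stabilized NdpKO, 10.6 FPKM in NdpKO, 10.3 FPKM in stabilized retinas and 10.4 FPKM in WT. Its highest and lowest values were 1.03-fold apart. Fzd3 (chromosome 14), a receptor of axon guidance and planar cell polarity, was at 4.98 FPKM in stabilized NdpKO, 5.79 FPKM in NdpKO, 5.17 FPKM in stabilized retinas and 5.83 FPKM in WT, so both libraries with stabilized beta-catenin were below both without, with overlapping intervals. Fzd8 (chromosome 18), close in sequence to Fzd5, was at 3.66 FPKM (2.79 to 4.53) in stabilized NdpKO, 2.80 FPKM (2.07 to 3.52) in NdpKO, 2.86 FPKM (2.12 to 3.60) in stabilized retinas and 2.57 FPKM (1.90 to 3.24) in WT. Stabilized NdpKO was the highest of the 4, with a log2 ratio of 0.44 to WT and overlapping intervals. Fzd10, Fzd2, Fzd1 and Fzd7 lay between 1.2 and 3.41 FPKM in every library, and their highest and lowest values were 1.24-fold apart or less. For comparison, Fzd4, the receptor of Norrin, was at 2.09, 1.99, 1.89 and 2.15 FPKM in stabilized NdpKO, NdpKO, stabilized and WT. Its interval in WT overlapped those of Fzd10, Fzd8, Fzd2, Fzd6 and Fzd1.

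Of the alternative Wnt receptors, Ryk was abundant and the Ror genes were low. Ryk (chromosome 9, 102834917 to 102908305), a Wnt-binding protein with an inactive kinase domain, was at 16.5, 15.8, 16.0 and 17.3 FPKM in stabilized NdpKO, NdpKO, stabilized and WT, 1.1-fold apart at most. Ror1, a receptor of Wnt5a, was at 0.742, 0.636, 0.595 and 0.575 FPKM in the same libraries, and Ror2, of the same family, at 0.212, 0.119, 0.140 and 0.104 FPKM. Both Ror genes were highest in stabilized NdpKO, with intervals that overlapped those of every other library.

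The R-spondin receptors were among the highest members, whereas 3 of the 4 R-spondins were low. Lgr4 (chromosome 2, 109917647 to 110014257) was at 14.1, 12.7, 13.5 and 12.8 FPKM in stabilized NdpKO, NdpKO, stabilized and WT, and Lgr5 (chromosome 10) at 9.75, 8.79, 10.3 and 9.48 FPKM. Lgr5 shares its deposited locus with A930009A15Rik, so its separate value is uncertain. In each stabilization pair the stabilized library had the higher value of both genes, with overlapping intervals. Lgr6 was below 0.05 FPKM in all 4 libraries. Rspo2 (chromosome 15, 43020794 to 43170826, minus strand) was the main R-spondin, at 1.63 FPKM (1.17 to 2.08) in stabilized NdpKO, 1.14 FPKM (0.8 to 1.48) in NdpKO, 1.32 FPKM (0.939 to 1.71) in stabilized retinas and 1.48 FPKM (1.06 to 1.91) in WT. NdpKO was lowest and stabilized NdpKO highest, a log2 ratio of 0.37 with overlapping intervals, while the stabilized library lay below WT. Rspo4 lay between 0.161 and 0.337 FPKM, and Rspo1 and Rspo3 below 0.1 FPKM.

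Of the Dkk partners and the Dkk genes, Kremen1 was well expressed and the Dkk genes were low. Kremen1, a receptor that removes LRP6 from the surface together with Dkk1, was at 8.11, 7.88, 7.80 and 7.93 FPKM in stabilized NdpKO, NdpKO, stabilized and WT, 1.04-fold apart at most, and shares its deposited locus with the microRNA gene Mir3079. Kremen2 was at 1.56, 1.53, 1.89 and 1.49 FPKM in the same libraries. Dkk1, which blocks LRP5 and LRP6, was at 0.329 FPKM (0.182 to 0.476) in stabilized NdpKO, 0.337 FPKM (0.188 to 0.486) in NdpKO, 0.214 FPKM (0.105 to 0.322) in stabilized retinas and 0.441 FPKM (0.258 to 0.624) in WT, with overlapping intervals. Dkk2 lay between 0.143 and 0.192 FPKM, Dkkl1, a Dkk-like gene, between 0.560 and 0.922 FPKM, and Dkk4 was listed at 0 in all libraries but WT. By contrast Dkk3, a divergent relative that is no member, lay between 97.5 and 116 FPKM.

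The secreted Wnt-binding inhibitors were present at low levels. Sfrp1 was at 1.87, 1.88, 1.91 and 1.58 FPKM in stabilized NdpKO, NdpKO, stabilized and WT, and Sfrp2 at 1.35, 1.69, 1.78 and 1.5 FPKM. Intervals overlapped for both. Sfrp5 and Wif1 lay between 0.122 and 0.408 FPKM, and both were highest in NdpKO. Frzb, a further gene of the Sfrp family that the symbol rule does not take in, was higher than any of them, at 7.82, 8.02, 5.46 and 7.94 FPKM in stabilized NdpKO, NdpKO, stabilized and WT, lowest in the stabilized library.

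**Figure D3:**
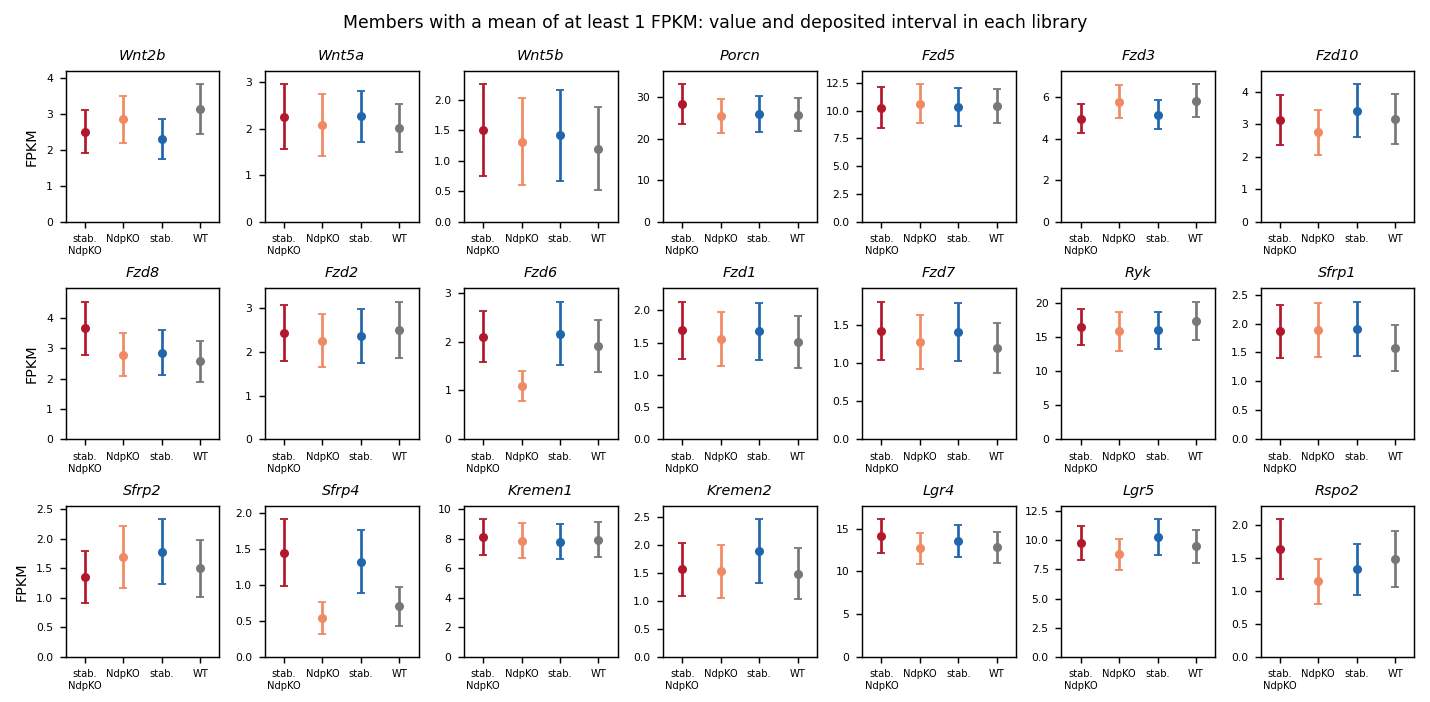
FPKM of the 21 members with a mean of at least 1 FPKM in each of the 4 libraries, 1 panel per gene with its own axis from 0; points are the value and bars the deposited interval. In 19 of the 21 panels the intervals overlap in every pair that was compared, and the exceptions are Fzd6 and Sfrp4.

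The comparisons ask which of these genes respond in whole retina to endothelial beta-catenin stabilization, and which to loss of Norrin. A log2 ratio was taken on FPKM plus 0.5, a gene was called at 1.5-fold, and the share of all 13150 genes past that fold stands beside the counts of members. With 1 library per genotype there is no replicate check and no test. Of the 21 members that entered, Sfrp4 and Fzd6 were the 2 called in any of the 5 comparisons, and 5.63% of all genes were called in at least 1 of them. Over the 4 libraries the highest value of a member was a median of 1.19 times its lowest, against 1.175 times over all genes above 0 in every library. Intervals overlapped in all 5 comparisons for 19 of the 21 members, against 94.8% of genes. Sfrp4, with a mean of 1.0045 FPKM, was the member just above the minimum and passed it through the libraries in which it was high, while Wnt4, the next below, had a mean of 0.819 FPKM.

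Sfrp4 was higher in both libraries with stabilized beta-catenin. Sfrp4 (chromosome 13, 19623104 to 19632994), a secreted Frizzled-related protein, was at 1.45 FPKM (0.987 to 1.91) in stabilized NdpKO, against 0.541 FPKM (0.322 to 0.761) in NdpKO. It was at 1.33 FPKM (0.893 to 1.76) in stabilized retinas, against 0.701 FPKM (0.436 to 0.967) in WT. Both values with stabilization lay above both values without it. The same order was seen in Fzd6, Fzd1, Fzd7, Fzd8, Wnt5a, Wnt5b, Porcn, Kremen2, Lgr4 and Lgr5, with smaller log2 ratios in both pairs. Fzd3, Fzd5 and Wnt2b had the reverse order. The log2 ratio of Sfrp4 was 0.90 for stabilized NdpKO over NdpKO, with intervals apart. It was 0.60 for stabilized over WT, with intervals that overlapped at the edge. Sfrp4 was the 1 member called higher in both stabilization pairs, which share no library, against 0.73% of all genes, and no member was called lower in both, against 0.304%. Since Sfrp4 entered only through the stabilized libraries, it had to differ in that direction, and the share of all genes is no gauge for its calls. With a pseudocount of 1 in place of 0.5 the ratio of stabilized over WT was 0.45, under the 1.5-fold line, so that Sfrp4 was then called in the NdpKO pair alone. In whole-retina RNA fewer cells of a type and less RNA per cell cannot be told apart.

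Fzd6 was low in the NdpKO library and near its WT level in the others. Fzd6 (chromosome 15, 39006034 to 39038188), a receptor known for planar cell polarity, was at 2.10 FPKM (1.57 to 2.62) in stabilized NdpKO, against 1.09 FPKM (0.777 to 1.40) in NdpKO. It was at 2.16 FPKM (1.52 to 2.81) in stabilized retinas, against 1.91 FPKM (1.38 to 2.45) in WT. The log2 ratio was 0.71 for stabilized NdpKO over NdpKO, with intervals apart, and -0.60 for NdpKO over WT, where the upper bound of NdpKO just reached the lower bound of WT. It was 0.14 for stabilized over WT and -0.04 for stabilized NdpKO over stabilized, both with overlapping intervals. With a pseudocount of 1 the ratios were 0.57 and -0.48 for stabilized NdpKO over NdpKO and for NdpKO over WT, both short of 1.5-fold. Whether the ratio of stabilization differed between the Ndp backgrounds was not tested.

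**Figure D4:**
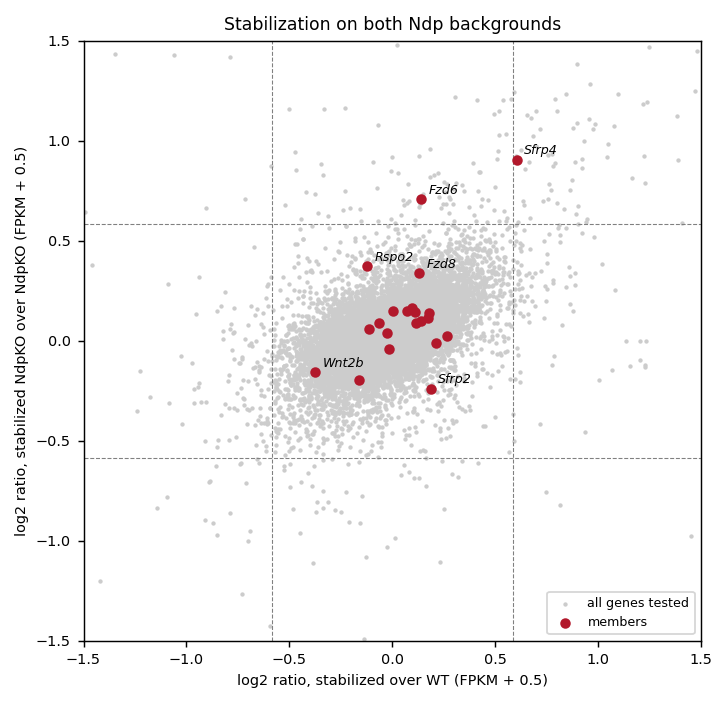
Log2 ratio of stabilized over WT (horizontal) and of stabilized NdpKO over NdpKO (vertical), on FPKM plus 0.5, for the 21 members in red and all genes tested in grey, with dashed lines at 1.5-fold; 194 genes outside the range of 1.5 are not drawn. Sfrp4 lies beyond the upper line on both axes and Fzd6 on the vertical axis alone.

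In the stabilized library against WT, 1 member, Sfrp4, was called higher and none lower, against 1.67% and 1.71% of all genes. No member of the 50 had intervals apart, against 2.46% of all genes with a usable status. The median log2 ratio of the 21 members was 0.11 and that of all genes -0.02. Wnt2b had the lowest ratio of a member, at -0.37, with overlapping intervals.

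In stabilized NdpKO against NdpKO, Sfrp4 and Fzd6 were called higher and no member lower, against 1.76% and 0.92% of all genes. They were also the 2 of all 50 members with intervals apart, against 1.66% of genes. The median log2 ratio was 0.10 for members and 0.03 for all genes. Fzd8 had a log2 ratio of 0.34 in this pair and 0.13 in stabilized over WT, with overlapping intervals in both.

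In NdpKO against WT, Fzd6 was called lower and no member higher, against 1.22% and 0.966% of all genes. No member of the 50 had intervals apart, against 0.631% of genes. The median log2 ratio was -0.01 for members and -0.02 for all genes. The NdpKO library had the Y-linked signal and WT did not, so sex and genotype cannot be told apart in these values. Rspo2 had the next lowest ratio, at -0.27, with overlapping intervals.

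In stabilized NdpKO against stabilized, no member that entered was called higher or lower, against 0.981% and 0.692% of all genes. No member of the 50 had intervals apart, against 0.605% of genes, and the median log2 ratio was 0.01 for members and 0.04 for all genes. Sex differed here as in NdpKO against WT. No member was called the same way in both Ndp pairs, against 0.266% of genes in each direction. Fzd9, which did not enter because of its low mean, was at 1.15 FPKM (0.761 to 1.54) in stabilized NdpKO, 0.585 FPKM (0.349 to 0.820) in NdpKO, 0.579 FPKM (0.345 to 0.814) in stabilized retinas and 0.687 FPKM (0.426 to 0.948) in WT. Stabilized NdpKO stood above the other 3 libraries, with overlapping intervals. With a minimum mean of 0.5 FPKM in place of 1 it entered and was called higher in stabilized NdpKO over stabilized and over NdpKO.

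In stabilized NdpKO against WT, Sfrp4 was called higher, at a log2 ratio of 0.70 with intervals apart, and no member was called lower, against 1.79% and 1.07% of all genes. It was the 1 member of 50 with intervals apart, against 1.89% of genes. Fzd6 had a log2 ratio of 0.10 here and overlapping intervals. Ndp, sex, the stabilized allele and CreER all differed in this pair, so their effects cannot be told apart. This comparison shares the WT library with the comparisons of NdpKO and of the stabilized library, and the stabilized NdpKO library with 2 others.

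Other genes of the pathway were described from a list of 48 symbols, of which 47 were in the table and 37 entered. In stabilized NdpKO over NdpKO 2 were called higher, Apcdd1 and Tcf7, and none lower, against 1.76% and 0.92% of all genes. Apcdd1, a membrane inhibitor of Wnt signalling, was at 16.5 FPKM (14.0 to 18.9) in stabilized NdpKO, 9.27 FPKM (7.62 to 10.9) in NdpKO, 14.5 FPKM (12.2 to 16.8) in stabilized retinas and 12.1 FPKM (10.2 to 14.1) in WT. It was lowest in NdpKO and intervals were apart in the NdpKO stabilization pair, as for Fzd6. Tcf7, a nuclear partner of beta-catenin, was at 1.28 FPKM (0.882 to 1.68) in stabilized NdpKO, 0.591 FPKM (0.369 to 0.814) in NdpKO, 1.54 FPKM (1.08 to 2.01) in stabilized retinas and 0.707 FPKM (0.455 to 0.960) in WT. Both stabilized libraries stood above both others with intervals apart in each stabilization pair, and Tcf7 was the 1 listed gene called in stabilized over WT. With a mean of 1.03 FPKM, Tcf7 entered only through the stabilized libraries and had to differ, so the share of all genes is no gauge for its calls. Notum, a secreted enzyme that removes the acyl group from Wnts, was under the minimum mean, at 0.360 FPKM (0.201 to 0.519) in stabilized NdpKO, 0.105 FPKM (0.0242 to 0.187) in NdpKO, 0.379 FPKM (0.211 to 0.546) in stabilized retinas and 0.0952 FPKM (0.0212 to 0.169) in WT, also with intervals apart in both stabilization pairs. Lef1 and Nkd2, also under the minimum mean, had intervals apart in stabilized NdpKO over NdpKO and overlapping intervals in stabilized over WT. They were at 0.753 and 0.618 FPKM in stabilized NdpKO, against 0.294 and 0.295 FPKM in NdpKO. Ndp was the 1 listed gene called lower in each comparison of an Ndp-deficient library with an Ndp-intact one. The Norrin co-receptors Lrp5 and Tspan12 and the Wnt co-receptor Lrp6 were not called in any comparison, nor was Axin2, a common target of beta-catenin. In NdpKO Lrp5 was at 2.78 FPKM and Tspan12 at 7.01 FPKM, against 3.06 and 6.83 FPKM in WT.

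Most markers of blood vessels moved with Sfrp4 over the stabilization pairs. The 14 endothelial markers summed to 106 FPKM in stabilized NdpKO and 107 FPKM in stabilized retinas, against 61.5 FPKM in NdpKO and 69.3 FPKM in WT. Of the 11 that entered, 9 were called higher in stabilized NdpKO over NdpKO, 6 in stabilized over WT and none lower in either, where 1.76% and 1.67% of all genes were called higher. Pecam1, an endothelial surface protein, was at 4.08 and 4.12 FPKM in stabilized NdpKO and stabilized retinas, against 2.02 and 1.93 FPKM in NdpKO and WT. Emcn, also on the endothelial list, went the other way, at 1.41 and 1.21 FPKM against 1.85 and 1.69 FPKM, with overlapping intervals. The 10 mural cell markers summed to 35.6 and 37.6 FPKM in stabilized NdpKO and stabilized retinas, against 16.0 and 23.7 FPKM in NdpKO and WT, and of the 6 that entered 4 were called higher in each stabilization pair and none lower, against the same 1.76% and 1.67% of genes. The 5 astrocyte markers summed to 27.3 and 22.1 FPKM in stabilized NdpKO and stabilized retinas, against 17.9 and 14.4 FPKM in NdpKO and WT, and of the 4 that entered 1 was called higher in stabilized NdpKO over NdpKO and 2 in stabilized over WT, against 1.76% and 1.67% of genes. None of these markers was listed at 0 in all libraries. Among those called, Tie1, Acta2, Abcc9 and Notch3 were below 1 FPKM in both NdpKO and WT and entered only through the stabilized libraries. They had to differ to enter, so the shares of all genes are no gauge for their calls. The 8 markers of fibroblasts and the ocular surface summed to 21.0 FPKM in stabilized NdpKO, 13.1 FPKM in NdpKO, 13.5 FPKM in stabilized retinas and 10.4 FPKM in WT. Of the 2 that entered, none was called lower in either stabilization pair. In stabilized NdpKO over NdpKO 1 was called higher and in stabilized over WT none, against 1.76% and 1.67% of genes. The one called was Mgp, matrix Gla protein, at 16.9 FPKM in stabilized NdpKO, against 10.5 FPKM in NdpKO. Col3a1, a fibrillar collagen under the minimum mean, was at 1.06 FPKM in stabilized NdpKO, against 0.267 FPKM in NdpKO, and at 0.544 FPKM in stabilized retinas, against 0.0958 FPKM in WT, with intervals apart in both pairs. Krt5, a keratin of surface epithelium, and Lum, a stromal proteoglycan, were listed at 0 in all but the stabilized library, where they were at 0.0165 and 0.0197 FPKM. Of the list of erythroid genes 5 were in the table, and they summed to 176 and 164 FPKM in stabilized NdpKO and stabilized retinas, against 75.5 and 69.8 FPKM in NdpKO and WT. Of 8 pigment epithelium and 7 ganglion cell markers that entered, 3 each were called higher in stabilized over WT, against 1.67% of genes. None of them was called lower there, and none was called in stabilized NdpKO over NdpKO. The part of any of these cell types in the values of Sfrp4 and Fzd6 was not tested. In NdpKO against WT, where Fzd6 was lower, the endothelial sum was 0.887 times and the mural sum 0.674 times that of WT. Each sum fell mainly through 1 gene, Cldn5 and Rgs5. These were the markers called lower, 1 of 11 endothelial and 1 of 6 mural, and none was called higher, against 1.22% and 0.966% of genes. Cldn5, the tight junction gene of the endothelial barrier, was at 0.675 FPKM in NdpKO and 6.91 FPKM in WT. Rgs5 was at 9.63 FPKM in NdpKO and 17.6 FPKM in WT. Cdh5, an endothelial marker, was higher in NdpKO, at 1.36 against 0.754 FPKM, with intervals apart.

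**Figure D5:**
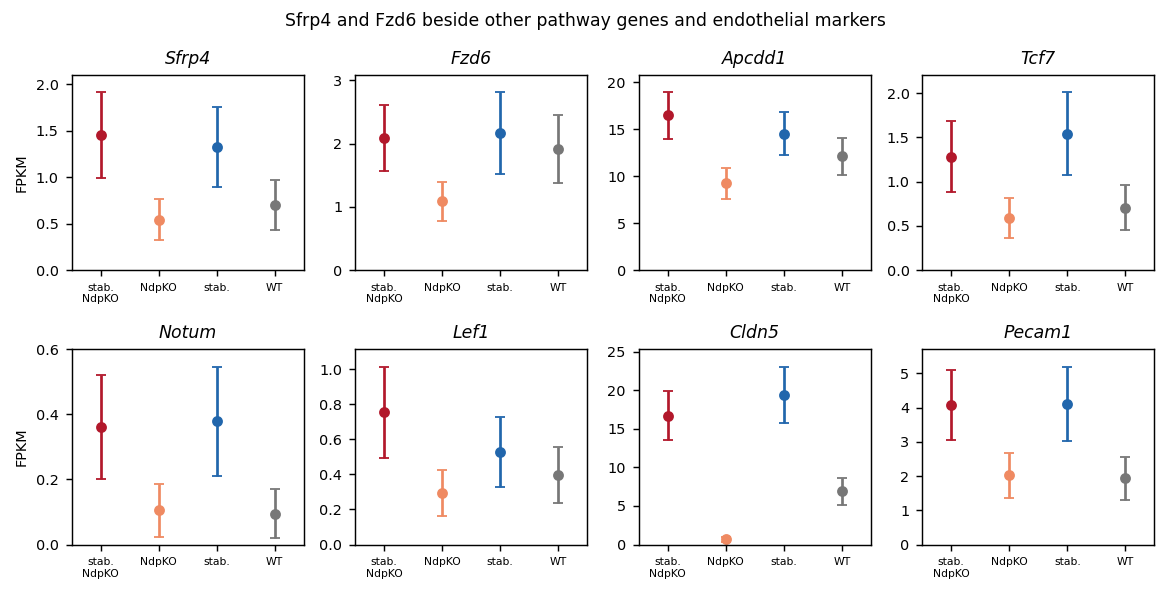
FPKM of Sfrp4, Fzd6, 4 other pathway genes and the endothelial genes Cldn5 and Pecam1 in each library, with points at the value and bars over the deposited interval, each axis starting at 0. All genes shown are higher in both stabilized libraries than in both others. Intervals are apart in both stabilization pairs for Tcf7, Notum, Cldn5 and Pecam1. For Sfrp4, Fzd6, Apcdd1 and Lef1 they are apart in stabilized NdpKO over NdpKO and overlap in stabilized over WT.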

How the data were processed

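RNA of whole retinas was sequenced in 1 library for each of 4 genotypes. The deposited table holds, for every gene, the FPKM of each library with its interval bounds and a quality status. The submitters' processing notes name TopHat, Cuffdiff and mm10. Versions, gene annotation, read totals, strandedness and interval level: not given in the sources used here. Each column carries a number that 1 sample's description repeats, and was matched to that sample.

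Ratios were taken as log2 of FPKM plus 0.5, which understates changes of low genes, for the 13150 genes whose 4-library mean was 1 FPKM or more with status OK in each library. Calls were made at 1.5-fold. Intervals were called apart when both values were above 0 and the bounds did not overlap. No test was made, since each genotype has 1 library; a fit of both factors without interaction was not run. A member that passes the minimum mean only through the libraries where it is high had to differ. Members, lists and rules were chosen with earlier results of these data known. The text names members with a mean of at least 1 FPKM, members with intervals apart and the highest of each role. Others are given by range, and a fixed set of other pathway genes is named. Notum, Lef1, Nkd2, Frzb, the members below 1 FPKM that are named singly and those shown with promoters were named after their values were seen. Gene coordinates are from GENCODE M21 and promoters from RefSeq GRCm38.p6, both of the mm10 assembly. For members with several promoter entries the outermost start was used. The procedure was run on a simulated pair of libraries with changes larger than 1.5-fold and no variation between mice. That run does not gauge how reliable the calls are. Alternatives were pseudocounts, minimum means, scaling, status, fold and intervals. Python 3.11.15, numpy 2.4.6, pandas 2.3.3 and matplotlib 3.10.9 were used.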

Additional observations from a re-analysis of the deposited data

How the results depend on the processing

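Of 190 recomputed counts and medians 167 held and 23 did not. A count held when it stayed within 1.5 times the reported one, and a median when it moved by less than 0.1. Most reported counts were 0 and could move only by gaining a call, so the 167 is no gauge for the calls made. Most of the 23 were counts of the calls of Sfrp4 and Fzd6. No log2 ratio of Fzd6, Fzd8, Rspo2, Sfrp4 or Wnt2b left the bounds that the deposited intervals allow. These are the members with a ratio of at least 0.3 in any comparison. With a pseudocount of 1, the member called higher in stabilized over WT, in stabilized NdpKO over WT and in both stabilization pairs, Sfrp4, was lost (counts of 0), as was the lower call of Fzd6 in NdpKO over WT (0), and 1 of 2 higher calls remained in stabilized NdpKO over NdpKO, that of Sfrp4. A pseudocount of this size lowers every ratio of genes near 1 FPKM. With a minimum mean of 5 FPKM, which leaves 7 members, and at 2-fold, each of these 5 counts was 0. Requiring intervals apart gave 0 for stabilized over WT, for NdpKO over WT and for both stabilization pairs. Centring on the median gave 0 lower calls in NdpKO over WT, where the ratio of Fzd6 lies at the edge of 1.5-fold. With a minimum of 0.5 FPKM or none, 1 member, Fzd9, was called higher in stabilized NdpKO over stabilized, and it joined Sfrp4 and Fzd6 in stabilized NdpKO over NdpKO, which made 3 members called higher there. The median member ratio of stabilized over WT was -0.016 with a minimum of 5 FPKM and 0.0039 with no minimum, against 0.11. Over pseudocounts of 0.1 and 1, centring and rescaling to TPM, the ratio of Sfrp4 lay between 0.67 and 1.27 in stabilized NdpKO over NdpKO and between 0.45 and 0.83 in stabilized over WT, and that of Fzd6 between 0.57 and 0.88 in stabilized NdpKO over NdpKO and between -0.76 and -0.48 in NdpKO over WT. No paired analysis was possible because the libraries, 1 per genotype, carry no replicate numbers, and leaving a library out removes a whole genotype. A fit of stabilization with the Ndp background as a second factor was not run. Depth limits the members near or below 1 FPKM: the half-width of the intervals at the median library was 13.7% of the value for Fzd3 and 35.2% for Sfrp4.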
